A study of Mus musculus with 9 samples.

Results

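The genes of skeletal muscle contraction were followed across 9 subcutaneous tumours grown from MC38, a mouse colon adenocarcinoma cell line, in C57BL/6 mice. The list held 34 genes of the sarcomere, of calcium handling and of muscle energy supply, taken by symbol. Of these, 29 had a row in all 9 libraries, among 17134 genes listed. Tnnc2, Pvalb, Ampd1, Trdn and Sln were not analysed here. The genes were chosen by their known role in muscle and by their measured levels, which were already known to differ widely among these libraries. Levels and group differences of these genes are therefore given as a description.

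There were 3 groups of 3 libraries. The GAD1-shA and GAD1-shB tumours came from MC38 cells that carried 1 of 2 short hairpin RNAs against Gad1, and the NTC tumours from cells with a non-targeting hairpin. In all 3 groups the hairpin was delivered by lentivirus, infected cells were selected with puromycin, and tumours were taken at day 20. The hairpins were carried by the injected tumour cells, while blood vessels, stroma and any muscle in a sample belonged to the host. The labels do not say that each tumour came from its own mouse, and p-values therefore reflect the spread among these libraries, which may be technical.

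Skeletal muscle fibres are packed with sarcomeres, in which thick filaments of myosin slide along thin filaments of actin between Z discs. An action potential opens calcium release channels of the sarcoplasmic reticulum, calcium binds troponin on the thin filament, and a calcium pump returns the fibre to rest. Fast fibre types differ from each other and from slow fibres in the myosin heavy chain they use, and many contractile proteins have separate fast and slow isoforms.

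Values are read counts that the authors divided by 1 factor per library, called normalized reads here. Libraries held 18373748 to 24918174 assigned reads, and 1 read was worth 0.820 to 1.13 normalized reads. Where a gene had no read, a count of 0 allows up to 3 reads, or 2.46 to 3.38 normalized reads. Of all 17134 genes listed, 653, 52 and 25 had no read in GAD1-shA replicates 1, 2 and 3. In the same order, 48, 73 and 115 had none in GAD1-shB tumours and 422, 155 and 109 in NTC tumours. Zeros of muscle genes in GAD1-shA replicate 1 and NTC replicate 1 thus lie in the libraries with most zeros over all genes. Other libraries went differently: GAD1-shB replicate 2 and NTC replicate 3, with 73 and 109 zeros over all genes, had 6 and 7 muscle genes at 0. NTC replicate 2, with 155, had 0 muscle genes at 0. Gad1 itself had 13.1, 23.4 and 50.0 normalized reads in GAD1-shA tumours, 21.8, 42.2 and 23.6 in GAD1-shB tumours, and 281, 265 and 326 in NTC tumours. Its log2 change for both hairpins against NTC was -3.43 (SE 0.41, limma adjusted p = 0.000643). Below, the 3 values of a group are always those of replicates 1, 2 and 3.

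Transcripts of the fast skeletal muscle sarcomere were abundant in 1 tumour, GAD1-shB replicate 1, lower in GAD1-shA replicates 2 and 3 and GAD1-shB replicate 3, and near 0 in several others. Of the 29 genes, 27 were highest in GAD1-shB replicate 1, the library in which 17.9% of all 14600 tested genes were highest. The exceptions were Smpx, highest in GAD1-shA replicate 2, and Eno3, highest in NTC replicate 1. GAD1-shA replicate 1 was the highest library for 25.5% of all tested genes and for 0 of the 29. GAD1-shB replicate 1, GAD1-shA replicates 2 and 3 and GAD1-shB replicate 3 were the top 4 libraries for 14 of the 29 genes. Libraries of 1 group were thus far apart: GAD1-shB held the library in which these genes were mostly highest, and also replicate 2, where 11 of the 29 genes had at most 3 reads. NTC replicate 2 was the highest NTC library for 20 of the 29 genes.

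**Figure D1:**
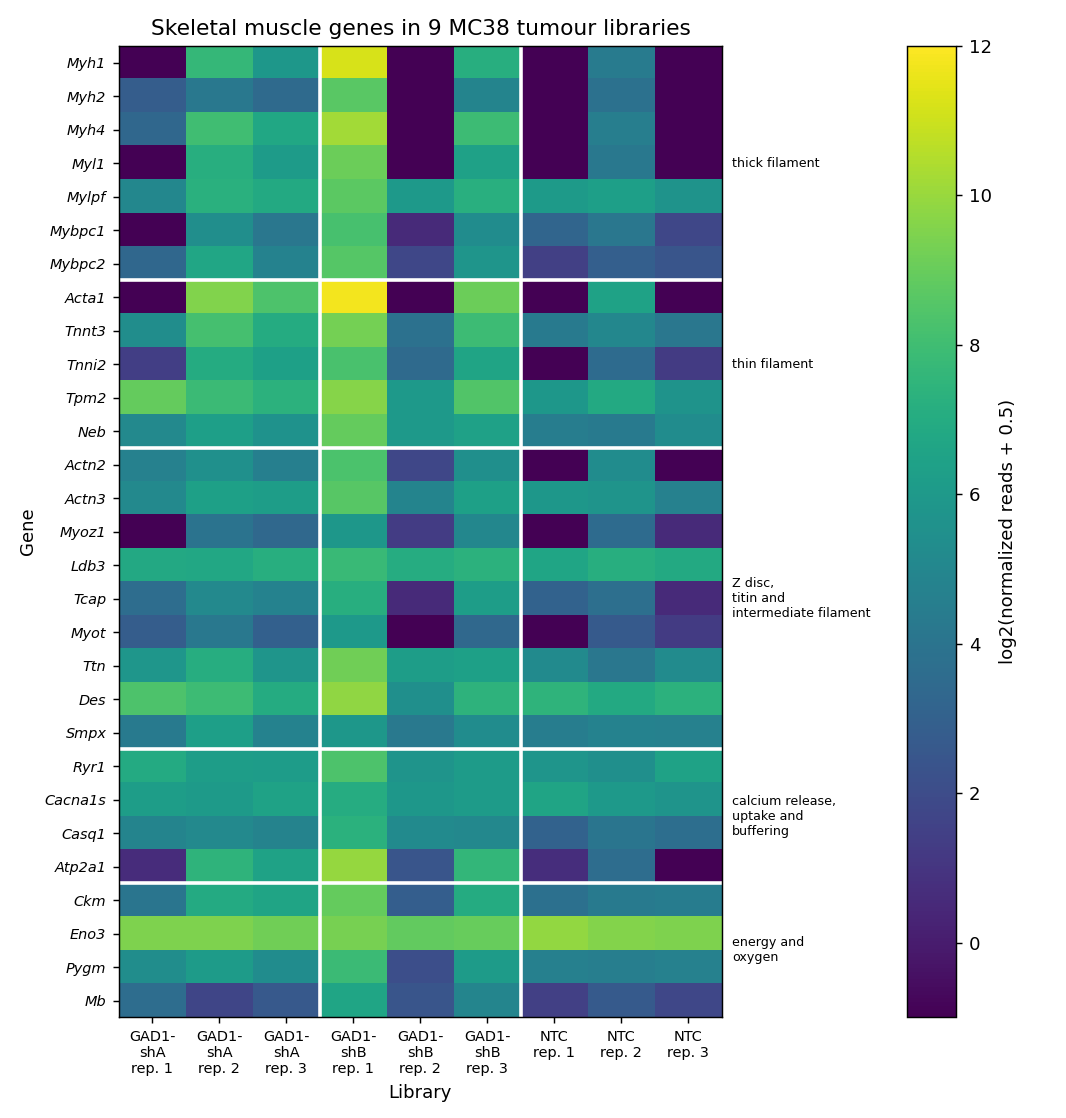
Colour gives log2(normalized reads + 0.5) of the 29 measured skeletal muscle genes (rows, by role) in the 9 libraries (columns; GAD1-shA, then GAD1-shB, then NTC). The column of GAD1-shB replicate 1 is the brightest for 27 of 29 genes, and Eno3 is bright in every column.

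The genes took 0.00967%, 0.0214% and 0.0130% of assigned reads in GAD1-shA tumours, 0.0894%, 0.00571% and 0.0183% in GAD1-shB tumours, and 0.00829%, 0.00906% and 0.00728% in NTC tumours. Eno3, the muscle enolase, held a large part of these reads in the NTC tumours. Without it the share was 0.00658%, 0.0180% and 0.0101% in GAD1-shA tumours, 0.0860%, 0.00339% and 0.0159% in GAD1-shB tumours, and 0.00378%, 0.00523% and 0.00370% in NTC tumours. With Eno3 counted, the exact 95% Clopper-Pearson interval for GAD1-shB replicate 1 was 0.0881% to 0.0906%, and the highest upper bound of any other library was 0.0220%. Such intervals cover counting error only, since reads made by PCR are not independent molecules. With each gene divided by its exon length, the same 4 libraries stayed on top, but GAD1-shA replicate 1 moved below all 3 NTC libraries. In bulk tumours, fewer muscle cells and less muscle RNA per cell cannot be told apart.

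Among the 29 genes, 3 patterns were described after their values had been seen. In the first, 12 genes had at most 3 reads in at least 3 libraries: Myh1, Myh2, Myh4, Myl1, Mybpc1, Acta1, Tnni2, Actn2, Myoz1, Myot, Atp2a1 and Mb. Their summed level was 64.3, 1803 and 807 normalized reads in GAD1-shA tumours, 10103, 26.5 and 1473 in GAD1-shB tumours, and 12.4, 269 and 10.6 in NTC tumours. The sum was thus at most 12.4 for the 12 genes together in NTC replicates 1 and 3, and NTC replicate 2 was above GAD1-shA replicate 1 and GAD1-shB replicate 2. All 12 were highest among the NTC libraries in replicate 2. Their highest library lay 6.02 to 115 times above their median over the 9 libraries, with a median of 29.0.

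A contrasting set of 8 genes had at least 20 normalized reads in every library: Mylpf, Tpm2, Actn3, Ldb3, Des, Ryr1, Cacna1s and Eno3. These summed to 1899, 1675 and 1368 normalized reads in GAD1-shA tumours, 3849, 913 and 1563 in GAD1-shB tumours, and 1546, 1400.3 and 1276 in NTC tumours. Eno3 alone gave 934 of the 1546 in NTC replicate 1 and 472 of the 913 in GAD1-shB replicate 2. It gave 642 of the 3849 in GAD1-shB replicate 1, so the sums understate the spread of the rest of the set. Their highest library lay 1.31 to 6.82 times above the median. The remaining 9 genes, Mybpc2, Tnnt3, Neb, Tcap, Ttn, Smpx, Casq1, Ckm and Pygm, fell between, at 3.10 to 39.0 times the median. The sets were cut on these same values, so their difference in spread follows in part from the cut.

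**Figure D2:**
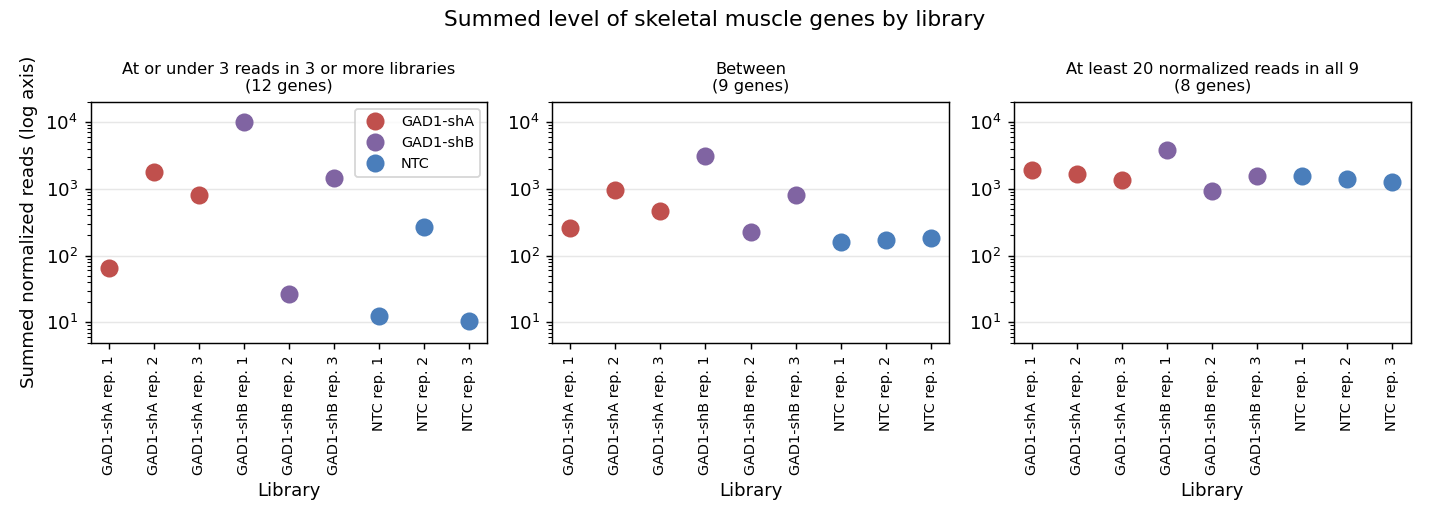
Summed normalized reads (log axis) in each of the 9 libraries for the 12 genes with at most 3 reads in at least 3 libraries (left), the 9 genes between (middle) and the 8 genes with at least 20 normalized reads in all libraries (right). Each point is 1 library. The left sums range over 10.6 to 10103 and the right sums, which include Eno3, over 913 to 3849. The sets were cut on these same values.

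The thick filament is built of myosin heavy and light chains. Myh1, Myh2 and Myh4 encode the heavy chains of the IIx, IIa and IIb fast fibre types and lie side by side on chromosome 11. The 250 bases before their RefSeq starts are shown because these neighbours had no reads in some tumours and many in others, with those of Ckm, which followed the same libraries, and of Eno3, which did not. They lie on the plus strand of build GRCm38.p6, at chr11:67170777-67171026 for Myh2, chr11:67199852-67200101 for Myh1, chr11:67237562-67237811 for Myh4, chr7:19410844-19411093 for Ckm and chr11:70656926-70657175 for Eno3. Capitals mark an E-box (CANNTG, the core bound by myogenic factors such as MyoD) or a TATA box (TATAAA, on either strand). Other forms of a TATA box were not sought, so the tatataa near the end of the Ckm window is unmarked.
Myh2: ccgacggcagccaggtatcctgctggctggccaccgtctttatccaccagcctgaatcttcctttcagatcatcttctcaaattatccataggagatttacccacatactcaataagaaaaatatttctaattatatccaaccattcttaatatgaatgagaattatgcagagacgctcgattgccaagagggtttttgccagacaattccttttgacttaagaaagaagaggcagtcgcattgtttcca
Myh1: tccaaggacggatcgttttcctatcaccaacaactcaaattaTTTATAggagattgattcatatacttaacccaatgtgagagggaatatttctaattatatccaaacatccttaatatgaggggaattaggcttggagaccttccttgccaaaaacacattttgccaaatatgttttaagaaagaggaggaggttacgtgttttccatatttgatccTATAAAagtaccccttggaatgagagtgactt
Myh4: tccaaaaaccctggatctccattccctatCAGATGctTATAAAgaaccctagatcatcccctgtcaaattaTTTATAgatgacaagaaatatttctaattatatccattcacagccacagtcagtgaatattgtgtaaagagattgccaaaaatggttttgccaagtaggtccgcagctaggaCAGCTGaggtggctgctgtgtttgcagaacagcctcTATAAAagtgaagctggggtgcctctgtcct
Ckm: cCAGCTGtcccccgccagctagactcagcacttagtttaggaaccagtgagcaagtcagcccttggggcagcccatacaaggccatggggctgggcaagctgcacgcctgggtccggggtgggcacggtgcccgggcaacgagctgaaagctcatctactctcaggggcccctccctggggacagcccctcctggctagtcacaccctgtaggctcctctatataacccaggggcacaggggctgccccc
Eno3: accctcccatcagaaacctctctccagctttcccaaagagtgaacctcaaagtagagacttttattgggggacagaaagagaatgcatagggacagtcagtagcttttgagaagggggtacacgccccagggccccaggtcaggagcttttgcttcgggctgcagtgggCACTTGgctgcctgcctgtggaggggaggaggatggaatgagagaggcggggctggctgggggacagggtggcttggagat
The 3 myosin windows share a run of 20 bases, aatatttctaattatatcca, which starts at base -130 in Myh2, -165 in Myh1 and -163 in Myh4, counted back from the start. No other gene of the 27025 with a window held it. Myh1 has TATAAA at -208 and -32 and Myh4 at -213, -179 and -31, while these letters are not in the Myh2 window. A match here is a description of the letters and not a binding site.

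The heavy chains followed the same libraries. Myh1 had 0, 205 and 58.2 normalized reads in GAD1-shA tumours, 2415, 0 and 141 in GAD1-shB tumours, and 0, 21.1 and 0 in NTC tumours. Myh4 had 9.80, 261 and 105 in GAD1-shA tumours, 1170.1, 0 and 239.8 in GAD1-shB tumours, and 0, 23.1 and 0 in NTC tumours. Myh2 had 6.54, 17.8 and 10.7 in GAD1-shA tumours, 414, 0 and 28.1 in GAD1-shB tumours, and 0, 14.1 and 0 in NTC tumours. Each heavy chain gene was thus at 0 in GAD1-shB replicate 2 and in NTC replicates 1 and 3, and the knockdown and NTC groups overlapped for all 3.

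The mix of heavy chains also differed between tumours. Shares were taken of the reads of Myh1, Myh2, Myh4 and Myh7, the last being the slow fibre heavy chain. In GAD1-shB replicate 1, Myh1 held 60.3% (exact interval 58.9% to 61.7%) and Myh4 29.2% (27.9% to 30.5%) of 4601 reads. Myh4 was instead the larger share in GAD1-shA replicate 2, with 53.6% (49.2% to 57.9%) of 521 reads against 42.0% (37.8% to 46.4%) for Myh1. The order was the same in GAD1-shA replicate 3, with 58.7% Myh4 and 32.6% Myh1 of 218 reads, and in GAD1-shB replicate 3, with 57.7% Myh4 and 33.9% Myh1 of 369 reads. For both genes the interval of GAD1-shB replicate 1 did not overlap those of these 3 tumours. Per kilobase of exon the order of Myh1 and Myh4 was the same in each of these 4 tumours, for example 380.2 and 194.5 normalized reads per kilobase in GAD1-shB replicate 1. In NTC replicate 2, with 63 such reads, the intervals of Myh1 and Myh4 overlapped, and the other 4 libraries had at most 15. Myh7 had 0 to 7.89 normalized reads in every library. These genes are close paralogs, and no source states how reads common to them were assigned, so the split among them is uncertain.

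**Figure D3:**
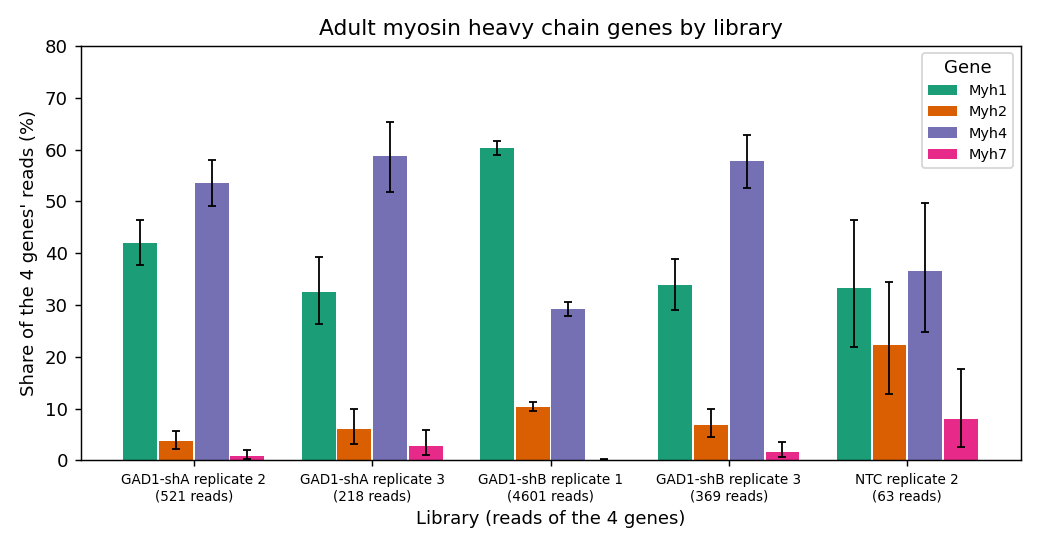
Share of the reads of Myh1, Myh2, Myh4 and Myh7 (percent) held by each gene in the 5 libraries with more than 15 such reads; bars are the shares and whiskers exact 95% Clopper-Pearson intervals for counting error. Myh1 leads in GAD1-shB replicate 1 at 60.3%, and Myh4 leads in GAD1-shA replicates 2 and 3 and GAD1-shB replicate 3.

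Of the light chains, Myl1, the essential light chain of fast fibres, had 0, 141 and 69.7 normalized reads in GAD1-shA tumours, 539.8, 0 and 85.6 in GAD1-shB tumours, and 0, 18.1 and 0 in NTC tumours. Mylpf, the fast regulatory light chain, had 31.6, 154 and 117 in GAD1-shA tumours, 427, 63.8 and 149 in GAD1-shB tumours, and 67.6, 81.3 and 50.9 in NTC tumours. Both were highest in GAD1-shB replicate 1, but Mylpf was detected everywhere and its NTC values lay within the range of the knockdown values. Mybpc1 and Mybpc2 encode the slow-type and fast-type myosin binding protein C, which braces the thick filament. Mybpc2 had 9.80, 105 and 26.2 in GAD1-shA tumours, 382, 2.95 and 54.0 in GAD1-shB tumours, and 2.25, 7.03 and 4.80 in NTC tumours. Mybpc1 lay between 0 and 42.1 in GAD1-shA tumours, at 299.5, 0.982 and 39.4 in GAD1-shB tumours, and between 2.88 and 17.1 in NTC tumours. Mybpc2 was higher in every GAD1-shA tumour than in every NTC tumour, as were 24.3% of all tested genes. Its value in GAD1-shB replicate 2 lay inside the NTC range.

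Thin filaments carry actin with tropomyosin and the troponins. Acta1, skeletal muscle actin, had 0, 754 and 328 normalized reads in GAD1-shA tumours, 3445, 0 and 537 in GAD1-shB tumours, and 0, 90.3 and 0 in NTC tumours. It was at 0 in 4 of the 9 libraries and the groups overlapped. Per kilobase of exon it was the highest of the 29 genes in GAD1-shB replicate 1, at 2243 normalized reads per kilobase, followed by Mylpf at 403 and Tnnt3 at 398.

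Tnnt3, fast troponin T, had 41.4, 292 and 128 normalized reads in GAD1-shA tumours, 630.3, 13.8 and 239 in GAD1-shB tumours, and 19.2, 32.1 and 17.3 in NTC tumours. Tnni2, fast troponin I, had 2.18, 129 and 82.0 in GAD1-shA tumours, 311, 10.8 and 94.6 in GAD1-shB tumours, and 0, 11 and 1.92 in NTC tumours. All 3 GAD1-shA values of Tnnt3 were above every NTC value, as for 24.3% of all tested genes. In GAD1-shB replicate 2, Tnnt3 lay below every NTC value and Tnni2 within the NTC range. The fast gene also made up a changing part of each fast and slow pair. Tnnt3 held 45.8%, 81.0% and 51.3% of the reads of Tnnt3 and Tnnt1 in GAD1-shA tumours, 93.1%, 11.9% and 73.4% in GAD1-shB tumours, and 11.2%, 13.4% and 7.93% in NTC tumours. Tnni2 held 67.7% of the reads of Tnni2 and Tnni1 in GAD1-shB replicate 1, 25.8% to 34.0% in GAD1-shA replicates 2 and 3 and GAD1-shB replicate 3, and at most 4.15% in the other libraries. Tnni1 was lowest in GAD1-shB replicate 1, at 148 normalized reads, and highest in NTC replicate 1, at 509, where Tnni2 was at 0. The shares thus move with the slow gene as well and are not a measure of fibre type.

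Neb encodes nebulin, the giant protein that runs along the thin filament. It had 34.9, 79.4 and 48.4 normalized reads in GAD1-shA tumours, 484, 64.8 and 85.6 in GAD1-shB tumours, and 22.5, 19.1 and 39.3 in NTC tumours. The 3 GAD1-shB tumours were all above the 3 NTC tumours, as for 22.3% of all tested genes. GAD1-shA replicate 1 lay below NTC replicate 3. Unlike the myosins, nebulin was above every NTC value in GAD1-shB replicate 2.

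Tpm2, beta-tropomyosin, had 484, 234 and 165 normalized reads in GAD1-shA tumours, 791, 61.9 and 351 in GAD1-shB tumours, and 58.6, 117 and 49.9 in NTC tumours. Des, desmin, the intermediate filament that links Z discs, had 327, 243 and 128 in GAD1-shA tumours, 911, 44.2 and 167 in GAD1-shB tumours, and 178, 119 and 163 in NTC tumours. For both genes GAD1-shA replicate 1 ranked second, although it had no Acta1 or Myh1 reads. Smooth muscle also makes both proteins. Of 10 smooth muscle markers 7 were measured, and none of the 6 tested was called for both hairpins against NTC. Their sum was 3079 normalized reads in GAD1-shA replicate 1 and 1326 to 1619 in the other 8 libraries. Myh11, the smooth muscle myosin heavy chain, had 200.4 in GAD1-shA replicate 1 and 11 to 67.9 elsewhere. The part of smooth muscle in the Tpm2 and Des values was not tested.

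At the Z disc, alpha-actinin cross-links thin filaments. Actn3, its fast fibre form, had 33.8, 82.3 and 75.4 normalized reads in GAD1-shA tumours, 399.6, 28.5 and 83.3 in GAD1-shB tumours, and 58.6, 53.2 and 25.9 in NTC tumours. Actn2, which heart muscle also uses, had 26.1, 45.8 and 23.8 in GAD1-shA tumours, 313, 2.95 and 43.9 in GAD1-shB tumours, and 0, 39.1 and 0 in NTC tumours. Both were highest in GAD1-shB replicate 1 and overlapped between groups, and Actn2 in NTC replicate 2 lay within the GAD1-shA range. Tcap, telethonin, which ties titin to the Z disc, ranged over 0.960 to 139. Myoz1 and Myot, binding partners of alpha-actinin, reached 59.2 and 62.7 in GAD1-shB replicate 1 and were at 0 in 2 libraries each. Ldb3, a Z disc scaffold, varied least of this group, between 98.0 and 222. Smpx, a small muscle protein, ranged over 18.7 to 81.3.

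Ttn encodes titin, the spring that spans the sarcomere. It had 55.6, 138 and 54.1 normalized reads in GAD1-shA tumours, 575, 75.6 and 82.2 in GAD1-shB tumours, and 37.2, 17.1 and 38.4 in NTC tumours. All 6 knockdown tumours were above all 3 NTC tumours, as for 16% of all tested genes. Titin has the longest exon sequence of the 29 genes, and at 4.93 normalized reads per kilobase it ranked last of them in GAD1-shB replicate 1.

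Calcium handling genes fell into separate patterns. Atp2a1, the calcium pump of fast fibres, had 1.09, 172 and 89.3 normalized reads in GAD1-shA tumours, 973, 4.91 and 193 in GAD1-shB tumours, and 1.13, 12 and 0 in NTC tumours. It held 11.5% (exact interval 10.9% to 12.1%) of the reads of Atp2a1 and Atp2a2 in GAD1-shB replicate 1, 1.49% to 3.03% in GAD1-shA replicates 2 and 3 and GAD1-shB replicate 3, and at most 0.189% in the other 5 libraries. Atp2a2, the pump of slow fibres and of non-muscle cells, had 4096 to 7506 in all libraries.

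Casq1, the calcium buffer of fast fibre sarcoplasmic reticulum, had 28.3, 34.6 and 27.9 normalized reads in GAD1-shA tumours, 155, 37.3 and 32.7 in GAD1-shB tumours, and 7.89, 16.1 and 12.5 in NTC tumours. All 6 knockdown values were above all 3 NTC values, as for 16% of all tested genes. The levels outside GAD1-shB replicate 1 were close together within the knockdown tumours, at 27.9 to 37.3, even where the myosins were at 0. Ryr1, the calcium release channel, ranged over 44.2 to 327, and Cacna1s, the voltage sensor that triggers it, over 52.8 to 129.7. Both were detected in all 9 libraries.

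Of the energy genes, Ckm, muscle creatine kinase, had 16.3, 122 and 95.9 normalized reads in GAD1-shA tumours, 486, 6.88 and 129 in GAD1-shB tumours, and 13.5, 19.1 and 21.1 in NTC tumours. Pygm, muscle glycogen phosphorylase, had 40.3, 70.1 and 39.3 in GAD1-shA tumours, 234, 3.93 and 70.9 in GAD1-shB tumours, and 24.8, 23.1 and 25.9 in NTC tumours. In GAD1-shB replicate 2 both lay below every NTC tumour. Mb, the oxygen carrier myoglobin, was 99.3 in GAD1-shB replicate 1, 29.3 in GAD1-shB replicate 3 and at most 12 in the others.

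Eno3, the muscle form of the glycolytic enzyme enolase, went the other way. It had 710.2, 711 and 579 normalized reads in GAD1-shA tumours, 642, 472 and 512 in GAD1-shB tumours, and 934, 779 and 725 in NTC tumours. All 6 knockdown values were below all 3 NTC values, and its highest library lay 1.31 times above its median. It was the only 1 of the 29 genes with all knockdown libraries below all NTC libraries, as 13.6% of all tested genes were.

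The ratio between tumours with muscle transcripts varied from gene to gene. Over the 12 genes with few reads in some libraries, GAD1-shB replicate 1 was 2.41 times (Tnni2) to 35.4 times (Mb) as high as GAD1-shA replicate 2, with a median of 5.11. Against GAD1-shB replicate 3 the ratio ran over 1.88 (Myoz1) to 17.2 (Myh1), with a median of 6.25. Against GAD1-shA replicate 3 it ran over 3.79 (Tnni2) to 41.5 (Myh1), with a median of 11. In the last 2 comparisons Myh1 had the largest ratio of the 12 genes.

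The main comparison made here set both hairpins against NTC. The fold changes here are differences of mean log2(normalized reads + 0.5), so those of genes at 0 in some libraries depend on the added 0.5. Of the 29 genes 25 passed the filter of 20 normalized reads in at least 3 libraries. Myh2, Myoz1, Myot and Mb did not. Of the 25 tested, 1 was called higher at a limma adjusted p under 0.05, where 15.5% of all tested genes were called higher, and none lower, where 9.49% were. The gene was Casq1, with a log2 change of 1.79 (SE 0.52, limma adjusted p = 0.0306). Casq1 passed the filter only through knockdown libraries, where it was high, since its NTC values were 7.89, 16.1 and 12.5. Its call is therefore a description and no separate support. At an unadjusted p under 0.05, 9 were higher and 1 lower, where 20.6% and 17.2% of all tested genes were. The median log2 change over all 29 genes without the filter was 1.89, against -0.03 over all genes. The changes of the fast myosins and actin came with wide errors: Acta1 changed by 4.62 (SE 3.17, limma adjusted p = 0.317) and Myh4 by 5.02 (SE 2.31, limma adjusted p = 0.143). Ttn and Casq1 were above every NTC library in all 6 knockdown libraries, as were 16% of all tested genes, and Eno3 was below, as were 13.6%. Since the genes were chosen for these levels, nothing further was read from these counts.

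The hairpins were also set against NTC separately, with the NTC libraries in common. For GAD1-shA no gene was called in either direction, where 11.4% of tested genes were called higher and 5.59% lower. At an unadjusted p under 0.05, 1 was higher and none lower by limma, where 18.1% and 15.5% of tested genes were. Mybpc2, Tnnt3, Tpm2, Ttn, Casq1 and Pygm were above every NTC library, as were 24.3% of tested genes, and Eno3 was below, as were 24%.

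For GAD1-shB, Neb (log2 change 2.42, SE 0.70, limma adjusted p = 0.0356) and Casq1 (2.25, SE 0.60, limma adjusted p = 0.0251) were called higher, where 13.4% of tested genes were. Eno3 was called lower (log2 change -0.59, SE 0.17, limma adjusted p = 0.0347), where 7.02% were. Neb, Ttn and Casq1 were above every NTC library, as were 22.3% of tested genes, and Eno3 was below, as were 20.4%. Set against each other, GAD1-shA and GAD1-shB gave no called muscle gene, where 0% of tested genes were called in either direction. No muscle gene reached an unadjusted p under 0.05 by limma there, where 3.32% of tested genes were higher and 3.6% lower in GAD1-shA.

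**Figure D4:**
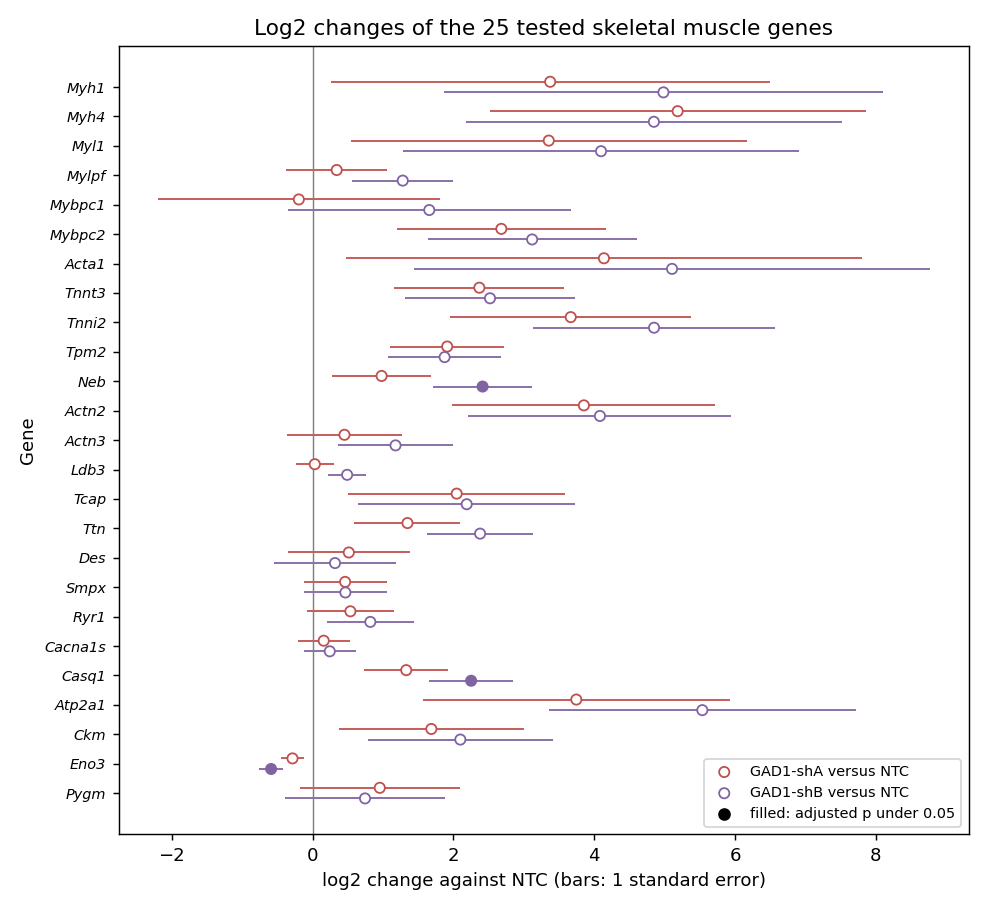
Log2 change against NTC of the 25 tested skeletal muscle genes for GAD1-shA (upper point of each pair) and GAD1-shB (lower point); bars are 1 standard error and filled points have a limma adjusted p under 0.05. Only Neb, Casq1 and Eno3 with GAD1-shB are filled, and Myh1 and Acta1 have the widest bars, at 3.11 and 3.66.

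Count models on the recovered reads called more of the muscle genes. For both hairpins, edgeR called Tnnt3 and Casq1 higher and none lower, where 15.2% and 8.74% of genes were called. DESeq2 called 9 higher, Mybpc2, Tnnt3, Tnni2, Tpm2, Neb, Tcap, Casq1, Atp2a1 and Ckm, and Eno3 lower, where 18.3% and 12.3% were. Of these, Mybpc2, Tnni2, Tcap, Casq1 and Atp2a1 passed the filter only through knockdown libraries. For GAD1-shA, edgeR called none in either direction, where 11.7% were higher and 4.89% lower. DESeq2 called Mybpc2 and Tpm2 higher and none lower there, where 15.3% and 9.17% were. For GAD1-shB, edgeR called Mybpc2, Tnnt3, Neb, Ttn, Casq1 and Atp2a1 higher and Eno3 lower, where 13.6% and 6.21% were. DESeq2 called 10 higher and Eno3 lower, where 16.5% and 9.66% were. Between the hairpins neither tool called a muscle gene, where edgeR called 0% of genes and DESeq2 0.123% higher and 0.0342% lower in GAD1-shA.

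Single libraries moved these calls. Without GAD1-shB replicate 1, the library with most muscle transcripts, Ttn, Casq1 and Neb were called higher for both hairpins against NTC and Eno3 lower, where 20.5% of genes were called higher and 17.1% lower. Casq1 then had a log2 change of 1.44 (SE 0.38, limma adjusted p = 0.0183) and Acta1 one of 3.34 (SE 3.15). The median change of the 25 genes was 1.39 without it, against 1.86 with it. Without GAD1-shB replicate 2, where muscle transcripts were scarce, 12 of the 25 were called higher, among them Myh4, Tnnt3, Tnni2, Atp2a1 and Ckm, where 13% of genes were, and none lower, where 6.14% were. Casq1 lost its call for both hairpins without NTC replicate 1, 2 or 3 or without GAD1-shA replicate 2 or 3, with limma adjusted p of 0.0505 to 0.129. For GAD1-shB, Casq1 lost its call without NTC replicate 1 or 3, and Neb without NTC replicate 1, 2 or 3, GAD1-shA replicate 3 or GAD1-shB replicate 3. Eno3 lost it without NTC replicate 1, 2 or 3 or GAD1-shB replicate 2 or 3.

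Other genes of the sarcomere, outside the 34, were mixed. For both hairpins against NTC, the counts of this and the other lists stand against 15.5% of all tested genes called higher and 9.49% called lower. Of 34 such genes on a second list, 20 were measured and 14 tested. Of the 14, 3 were called higher, among them Klhl41 and Pdlim3, and 3 lower (Obsl1, Nrap and Flnc), and 12 of the 20 measured were highest in GAD1-shB replicate 1, as were 17.9% of all tested genes. The median log2 change of the 14 was -0.09, against -0.03 over all genes. Pdlim3, a Z disc protein, had 92.6, 48.6 and 26.2 normalized reads in GAD1-shA tumours, 98.4, 11.8 and 38.3 in GAD1-shB tumours, and 6.76, 10.0 and 4.80 in NTC tumours. Its groups did not overlap, with every knockdown library above every NTC library, as for 16% of all tested genes. Its log2 change was 2.52 (SE 0.66, limma adjusted p = 0.0205), a call lost without NTC replicate 1 or 3. Pdlim3 and Klhl41 passed the filter only through knockdown libraries. Flnc, the filamin of muscle Z discs, was lower by limma with a log2 change of -1.57 (SE 0.45, adjusted p = 0.0308), a call lost without any 1 of 7 of the 9 libraries.

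Of the 11 genes of the slow fibre list 8 were measured and 6 tested, with none called higher and Tnnt1, Tnni1 and Myh7b lower for both hairpins against NTC, where 9.49% of all tested genes were lower. Of the 8, 1 was highest in GAD1-shB replicate 1, a share near the 17.9% of all tested genes, and the difference from the fast genes was not tested. The median log2 change of the 6 was -0.78. Tnnt1, slow troponin T, had 49.0, 68.2 and 121 normalized reads in GAD1-shA tumours, 47.0, 102 and 86.7 in GAD1-shB tumours, and 152, 208 and 201 in NTC tumours. Every knockdown value was below every NTC value, as for 13.6% of all tested genes. The log2 change of Tnnt1 was -1.31 (SE 0.34, limma adjusted p = 0.0206), a call lost without NTC replicate 2 or 3. Tnni1, slow troponin I, fell by 0.77 on the log2 scale (SE 0.22, limma adjusted p = 0.0285), a call lost without NTC replicate 1 or 2 or GAD1-shA replicate 3.

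Of 24 further genes of excitation-contraction coupling and the fibre membrane, 14 were measured and 9 tested, with none higher, Cacnb1 and Chrnd lower, and a median log2 change of -0.29. Of 18 further genes of muscle energy metabolism, 14 were measured and 12 tested, with 1 called in each direction, Gpd1 being the higher, and a median log2 change of 0.39. The calls of Klhl41, Nrap, Obsl1, Myh7b, Cacnb1 and Chrnd were each lost without NTC replicate 1, while that of Gpd1 held with any 1 library left out. Gpd1, the glycerol phosphate dehydrogenase that fat and muscle share, had 122, 44.9 and 54.9 normalized reads in GAD1-shA tumours, 47.9, 104 and 85.6 in GAD1-shB tumours, and 7.89, 16.1 and 9.60 in NTC tumours. Its groups did not overlap, with every knockdown library above every NTC library, as for 16% of all tested genes. Its log2 change was 2.68 (SE 0.43, limma adjusted p = 0.00204), and it passed the filter only through knockdown libraries. In GAD1-shB replicate 1 it was lower than in 4 of the other 5 knockdown tumours.

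Pax7 marks satellite cells, the stem cells of muscle. It had 3.27, 6.54 and 9.02 normalized reads in GAD1-shA tumours, 3.48, 7.86 and 3.38 in GAD1-shB tumours, and 228, 97.4 and 126 in NTC tumours. Its log2 change was -4.64 (SE 0.50, limma adjusted p = 0.000518), and the adjusted p was at most 0.00256 with any 1 library left out. The NTC values were thus all far above the knockdown values, and Pax7 passed the filter only through NTC libraries. Over all tested genes, 13.6% had every knockdown library below every NTC library. Pax7 was the only called gene of the 6 satellite cell genes measured of 9, whose median log2 change was -0.02. Cdh15, a cadherin of satellite cells, had 25.1 to 78.7 in all libraries. Of 12 genes of developing or regenerating muscle 3 were measured, and neither of the 2 tested was called. Of 11 heart markers 5 were measured and none of the 4 tested was called; Myh6, the cardiac myosin heavy chain, had 0 to 14.7.

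Of 7 tendon markers 6 were measured and 4 tested, with Fmod and Thbs4 called higher, where 15.5% of all tested genes were, and none lower. The other 2 tested did not go with them: Mkx, a transcription factor of tendon, had a log2 change of -0.46 (SE 0.27, limma adjusted p = 0.238), and Scx, another, one of 0.19 (SE 0.46, limma adjusted p = 0.794). The median of 2.19 lies between these pairs and describes neither. The sum of the 6 was 939, 246 and 408 normalized reads in GAD1-shA tumours, 922, 361 and 493 in GAD1-shB tumours, and 221, 317 and 285 in NTC tumours. Fmod, the matrix proteoglycan fibromodulin, had 70.8, 36.5 and 12.3 in GAD1-shA tumours, 60.9, 13.8 and 21.4 in GAD1-shB tumours and 0 in every NTC tumour. Thbs4, the matrix protein thrombospondin 4, had 666, 43.9 and 112 in GAD1-shA tumours, 666, 100.2 and 272 in GAD1-shB tumours, and 10.1, 13.0 and 8.64 in NTC tumours. Its log2 change was 4.18 (SE 0.80, limma adjusted p = 0.00488), and both calls held with any 1 library left out. Both Fmod and Thbs4 passed the filter only through knockdown libraries. Whether tendon had a part in the muscle gene levels was not tested.

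Genes outside every list were also ranked by how near their profile lay to the muscle genes. Likeness was the mean absolute difference, over the 9 libraries, between a gene's centred log2 values and the median centred profile of the 25 tested muscle genes. The 10 nearest of 12241 genes were Asap3, Cdkl3, Csf3r, Epb41l3, Igsf11, Slc22a29, Efhb, Tlr8, H2-Q2 and Col8a1, at 0.61 to 0.73, against a median of 1.25. None of these 10 was at 0 in any library: Asap3 had 32.7, 126 and 62.3 normalized reads in GAD1-shA tumours, 142, 58.9 and 76.6 in GAD1-shB tumours, and 23.7, 28.1 and 29.7 in NTC tumours. The 25 muscle genes themselves lay at 0.45 (Actn3) to 3.80 (Acta1) from the profile. Tnnt3 at 0.53 and Ckm at 0.55 were near it, while Myh1 at 2.92 and Myh4 at 2.48 were further off than the median gene. Nearness to this profile is therefore not likeness to actin or the fast myosins. Against the profile of the 12 genes with few reads in some libraries, a ranking chosen after values were seen that kept in the genes of the other lists, the nearest of 13987 genes were Eef1a2 (1.04), Hspb7 (1.16) and Myom2 (1.44), against a median of 2.96. Eef1a2 is a translation elongation factor of muscle and neurons, Hspb7 a small heat shock protein of heart and skeletal muscle, and Myom2 an M band protein; Hspb7 and Myom2 are among the 20 measured genes of the second sarcomere list. Eef1a2 had 7.62, 19.6 and 9.84 in GAD1-shA tumours, 166, 2.95 and 36.0 in GAD1-shB tumours, and 0, 6.02 and 0 in NTC tumours. The 3 genes were all highest in GAD1-shB replicate 1.

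Of the 29 genes, 22 had a window in the RefSeq promoter table. An E-box was present in the 250 bases before the start in 17 of the 22, and in 69.3% of all 27025 genes. The MEF2-like motif, CTA and TAG with 4 free bases between them, was present in 3 of the 22, Ldb3, Smpx and Ttn, and in 3.70% of all genes. TATAAA on either strand was present in 4 of the 22, Acta1, Myh1, Myh4 and Myl1, and in 14.3% of all genes. All 4 belong to the 12 genes with few reads in some libraries, 9 of which had a window. None of the 7 genes detected throughout and none of the 6 between held these exact letters. Variants were not counted, such as the tatataa in the window of Ckm, a gene of the pattern between. Over the 22 genes the share with TATAAA was 18.2%, near that of all genes. The patterns were set after values were seen, and the split among them was not tested. For genes with several starts a match in any window was counted. None of the 3 motifs contains another, and the E-box and MEF2-like patterns read the same on both strands.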

How the data were processed

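RNA of 9 MC38 tumours was sequenced on an Illumina NovaSeq after column purification and a NEBNext Ultra library kit, per the labels' protocols. The deposited values are a signal: read counts per gene that the authors divided by 1 factor per library, as the values show, 100% of them being whole multiples of their library's smallest positive value (tolerance 0.001). Cuffdiff 2.2.1 and mm9 are named in the submitters' processing notes, with no role. Not given in the sources used here: aligner, counter, strand setting and annotation. Overlapping genes and close paralogs are therefore uncertain. In NTC replicate 2, 1 read is worth 1.00, so whole reads there cannot be told from whole values.

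Genes with at least 20 normalized reads in at least 3 libraries (14600 of 17134) were tested with limma 3.58.1 in R 4.3.3 on log2(value + 0.5), with a trended prior and Benjamini-Hochberg adjustment over all of them, in 1 fit to 9 libraries. This called 3644 genes for both hairpins against NTC; edgeR 4.0.16 on recovered reads called 3499 and DESeq2 1.42.0 called 4474. Libraries were grouped by their titles. Counting error was exceeded within every group, the smallest chi-square between replicates being 8.05 per degree of freedom. The fit was tested on simulated data.

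The muscle genes, 16 other lists and the tests were chosen with earlier results of these data known. Named were Gad1, all muscle genes, the 3 most abundant and up to 4 called genes of each list, and the 10 genes of mean 40 or more nearest to the muscle profile; not all are discussed, and some are not reported here. Exon lengths came from a GENCODE annotation of GRCm38 and promoters from RefSeq, build GRCm38.p6. Alternatives were the pseudocount, filter, scaling, tool, replicate block, groups fitted and each library left out.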

Additional observations from a re-analysis of the deposited data

How the results depend on the processing

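For both hairpins against NTC, the count of muscle genes called higher was 1 by limma, 2 by edgeR and 9 by DESeq2, and 0 to 12 with 1 library left out. The count called lower was 0 by limma and 1 by DESeq2, and 0 to 1 with 1 library left out. For GAD1-shA against NTC, the count called higher was 0 by limma, 2 with only the compared groups fitted and 2 by DESeq2, and 0 to 1 with 1 library left out. For GAD1-shB against NTC it was 2 by limma, 1 with only the compared groups fitted, 6 by edgeR and 10 by DESeq2, and 0 to 11 with 1 library left out; the count lower was 1, and 0 to 1 with 1 library left out. Over all genes, the count changed with 1 library left out was 2005 to 5498 for both hairpins, lowest without NTC replicate 1 and highest without GAD1-shB replicate 1, 1268 to 3992 for GAD1-shA and 1835 to 4237 for GAD1-shB. For GAD1-shA against GAD1-shB it was 0 by limma and edgeR, 23 by DESeq2 and 0 to 1 with 1 library left out. The causes were not tested. A pseudocount of 2, no filter and TMM scaling moved no count of calls by more than 1.5 times, and TMM scaling moved the median of all genes by at most 0.01 on the log2 scale. Fitting only the compared groups leaves the comparison of both hairpins as it is, since it already uses all 9 libraries.

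Replicate numbers gave no sign of pairing: none of 9 correlations between same-numbered libraries of different groups was over 0.1, the range being -0.34 to 0.06. These are correlations of deviations from group means of 3 libraries, so they cannot exclude a shared batch. With the replicate number as a block, 0 muscle genes were called higher for both hairpins and 0 for GAD1-shB against NTC, with an adjusted p of 0.0610 for Casq1 in the first and 0.0527 in the second.

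Depth limits the genes with few reads, where 1 read is close to 1 normalized read and log2 changes depend on the 0.5 added. With 3 libraries a group and muscle transcripts uneven within groups, standard errors of log2 changes reached 3.66.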

Other observations

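Car3, a carbonic anhydrase abundant in muscle and fat, ranked thirteenth in likeness to the 12 muscle genes with few reads in some libraries. It had 608, 181 and 95.1 normalized reads in GAD1-shA tumours, 623, 19.6 and 117 in GAD1-shB tumours, and 1.13, 29.1 and 1.92 in NTC tumours. GAD1-shA replicate 1, which had no Acta1 reads, was thus nearly as high as GAD1-shB replicate 1. The same library also had the highest endothelial sum: the 8 endothelial markers, none of them called for both hairpins against NTC, summed to 12158.5 normalized reads there and to 2630.2 to 4249 in the other 8. The fat markers measured, Fabp4 and Lipe, summed to 3201 there and to 429 to 777 elsewhere. They were the only 2 measured of 10 listed, and Fabp4 alone gave 2596 of the 3201. Whether that library held more fat was not tested.

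Other marker lists were scored in the same comparison of both hairpins against NTC. Of the pericyte list, Pdgfrb, Kcnj8 and Abcc9 were called lower among 6 tested. Of the red blood cell list 4 of 5 were lower, with sums of 176 to 2526 normalized reads in the knockdown tumours, against 61042, 6372 and 3402 in NTC replicates 1, 2 and 3. Lipe of the fat list, Lor of the keratinocyte list, and Krt7 and Cdh1 of the epithelial list were called higher, and no gene of the peripheral nerve list was called. The calls of Krt7, Cdh1 and Lor held with any 1 library left out, and each of the others was lost without NTC replicate 1.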
